A study of Mus musculus with 18 samples.

Results

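CD4 single-positive thymocytes that carry the OT2 receptor were compared with CD8 single-positive thymocytes that carry the OT1 receptor, each from 1 mouse with a wild-type host. Cells were chosen by their CD4 and CD8A surface antibody values, v = log2(1 + count × median cell antibody total / cell antibody total). OT2 cells with v above 6.3 for CD4 and at most 6.1 for CD8A gave 189 cells (here OT2 CD4 SP, of 254 cells of that mouse). OT1 cells with v at most 6.3 for CD4 and above 6.1 for CD8A gave 131 cells (OT1 CD8 SP, of 282 cells of that mouse). Together they are 320 of the 1331 cells of the series.

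Both mice were bone marrow chimeras. OT2 or OT1 donor marrow of B6 background and CD45.1.2 type (30%) was mixed with B6 CD45.1 competitor marrow (70%). The mix was given to C57BL6/Ncr wild-type recipients of CD45.2 type. Thymi were taken 6 weeks after transplant, at a labelled age of 14 weeks, from mice that were each labelled female and not pooled. In all samples, cells were sorted as CD44lo, CD45.1.2+ and positive for the Vα2 and Vβ5 receptor chains, so low CD44 and these 2 chains are shared by both groups and are no finding. A further pair of mice had RIPmOVA hosts, also of CD45.2 type, in which an insulin promoter drives ovalbumin, the antigen of both receptors. Gene expression and surface antibodies were read in the same cells with the 10x Genomics 5' assay. The receptor and the coreceptor lineage change together in this comparison, and each side is 1 mouse, so receptor, lineage and mouse cannot be told apart. No test was possible. Ratios carry exact 95% intervals that cover counting error only.

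OT1 recognises an ovalbumin peptide on MHC class I and OT2 another on MHC class II. In the thymus, a receptor that binds MHC class II on positive selection directs a CD4+CD8+ precursor to the CD4 lineage, through the factor ThPOK (Zbtb7b). A receptor that binds MHC class I directs it to the CD8 lineage, through Runx3, which silences Cd4. New single-positive cells then gain receptors for exit and survival before they leave the thymus.

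The cells were identified by DNA tags, shown here because they define both groups. HT11 marked the OT2 mouse and HT3 the OT1 mouse. The CD4 and CD8A tags were used for the choice of cells, and the CD8B tag was not.
HT11: gcttaccgaattaac
HT3: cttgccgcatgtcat
CD4: aacaagacccttgag
CD8A: tacccgtaatagcgt
CD8B: ttccctctatggagc

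The antibody values that chose the cells are a description. In OT2 CD4 SP the median v was 7.77 for CD4 and 3.69 for CD8A. In OT1 CD8 SP it was 4.76 for CD4 and 7.43 for CD8A. The lowest CD4 value among the OT2 members was 6.41 and the nearest OT2 cell outside had 6.29. The lowest CD8A value among the OT1 members was 6.13 and the nearest OT1 cell outside had 6.099. Within 0.5 of either threshold lay 16 of the 189 OT2 members and 28 of the 131 OT1 members. In the OT1 mouse, 18 non-members also lay within 0.5 of the CD4 threshold and 38 within 0.5 of the CD8A threshold. The shares of CD4+CD8- cells were 74.4% of OT2 cells (exact 95% interval 68.6 to 79.7) and 15.6% of OT1 cells (11.6 to 20.4).

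**Figure D1:**
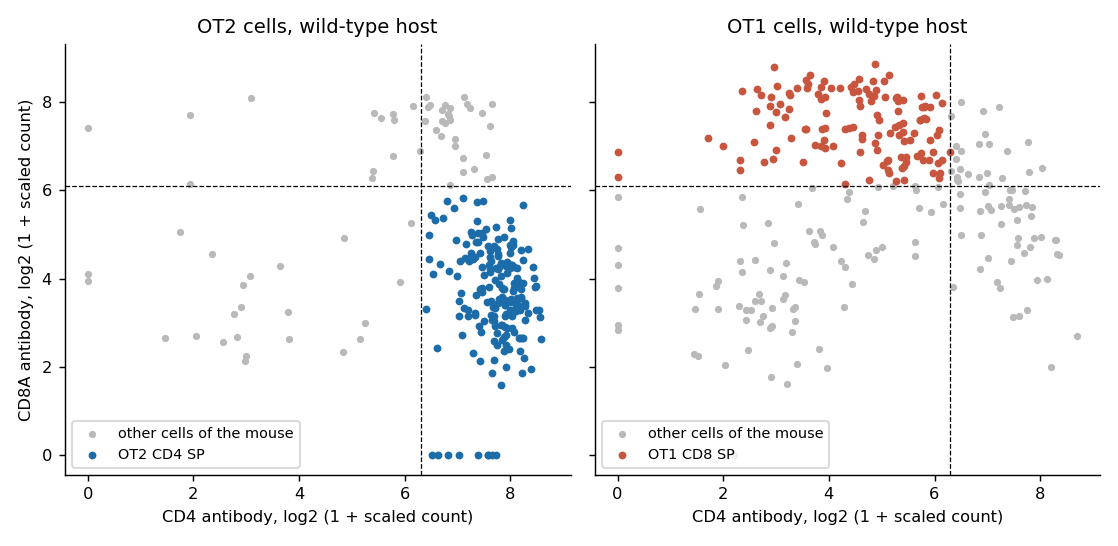
CD4 (x axis) and CD8A (y axis) antibody values, as log2 (1 + scaled count), of every cell of the OT2 mouse (left) and the OT1 mouse (right) with wild-type hosts; each point is a cell and dashed lines are the thresholds at 6.3 and 6.1. The 189 OT2 CD4 SP cells (blue) lie at the lower right, and the 131 OT1 CD8 SP cells (red) spread over a wide range of CD4 values.

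Depth differed between the groups. OT2 CD4 SP held 566769 RNA UMIs, with a median of 2937 per cell, and OT1 CD8 SP held 956929, with a median of 6119. Antibody UMIs were 764920 and 498975. All 6 mice of the series were run in 1 lane, and none of the 1331 cell barcodes was shared by 2 mice. The receptor segment Trbv12-1 marked the OT1 cells: 128 of 131 OT1 CD8 SP cells and 6 of 189 OT2 CD4 SP cells had a UMI of it. Trbv12-2 was the reverse, with a UMI in 142 of 189 OT2 CD4 SP cells and in 0 of 131 OT1 CD8 SP cells, a count that leaves room for a share of 2.29%.

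The labels and the data seemed to differ on one point. Xist, the RNA that coats the inactive X chromosome in female cells, had 177 UMIs in OT2 CD4 SP and 0 in OT1 CD8 SP. The 3 OT2 mice held 254 to 299 Xist UMIs each and the 3 OT1 mice 1 to 9, although every mouse was labelled female. The cells were sorted as donor type, and whether the sex label describes the donor or the recipient could not be settled. The Y-linked genes Ddx3y, Eif2s3y and Uty had 0 UMIs in every mouse, and Kdm5d had 2, in the OT2 mouse with the wild-type host. Rnf43, an E3 ligase that restrains Wnt signalling, also followed the donor line, with 216 to 334 UMIs in each OT2 mouse and 4 to 6 in each OT1 mouse. Between OT2 CD4 SP and OT1 CD8 SP, donor line and gate cannot be told apart. The 44 CD4+CD8- cells of the OT1 mouse, on the CD4 side of the gate, had 0 Rnf43 and 4 Xist UMIs.

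Cycling cells were found among OT1 CD8 SP. A cell was called cycling with at least 3 UMIs of the proliferation genes Mki67, Top2a, Rrm2, Birc5 and Cdk1. This held for 0 of 189 OT2 CD4 SP cells, a count that leaves room for a share of 1.59%, and for 21 of 131 OT1 CD8 SP cells, 16.03% (exact interval 10.2 to 23.5). The 21 cells had a median of 11174 RNA UMIs, against 5557.5 in the other 110, and gave 33.9% of all RNA UMIs of OT1 CD8 SP. Deeper cells reach 3 UMIs more easily, so depth enters this share. After each cell was thinned to 1500 UMIs, Mki67 was seen in 3 of 179 OT2 CD4 SP cells and 11 of 127 OT1 CD8 SP cells. In the antigen-bearing hosts the rule marked 0 of 39 OT2 CD4+CD8- cells and 6 of 39 OT1 CD4-CD8+ cells.

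A gene was called past 2-fold when its whole interval lay past 2-fold and at least 20 UMIs were seen in both sums together. Of 7603 genes measured so, 108 were called higher in OT2 CD4 SP (1.42%) and 262 higher in OT1 CD8 SP (3.45%). Without the 21 cells, of 6849 genes, 68 (0.993%) and 53 (0.774%) were called. Of the 262 genes, 44 were also called without the cycling cells (16.8%), and of the 108 genes, 67 were (62.0%). By the ratio alone, without its interval, 536 (7.05%) and 791 (10.4%) were past 2-fold. Every RNA level below is in CPM, UMI counts of the summed cells scaled to a common total. Levels of OT1 CD8 SP are given for all 131 cells and, where they matter, for the 110 cells that were not cycling. Here, not cycling means only that the rule of 3 UMIs was not met. In such sums, fewer cells of a type and less RNA per cell cannot be told apart.

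The coreceptor genes followed the gates. Cd4 was 348 CPM in OT2 CD4 SP and 12.5 in OT1 CD8 SP, 27.7-fold higher (interval 15.5 to 54.6). Cd8a was 7.06 CPM against 699, 99.1-fold lower in OT2 CD4 SP (38.5 to 365). Cd8b1, which encodes the other chain of the CD8 dimer, was 63.5 against 595, 9.36-fold lower (6.68 to 13.5). These genes encode the proteins used for the choice or their partner and are a check on it. Cd4 was seen in 111 of 189 OT2 CD4 SP and 11 of 131 OT1 CD8 SP cells. Cd8a was seen in 2 of 189 OT2 CD4 SP and 107 of 131 OT1 CD8 SP cells, and Cd8b1 in 26 of 189 (13.8%) and 106 of 131. The level that free RNA in droplets would give was not estimated.

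Other genes of the CD4 lineage were higher in the OT2 cells. Zbtb7b (chromosome 3, 89377644 to 89393673, GRCm38.p6), which encodes ThPOK, was 70.6 CPM in OT2 CD4 SP, from 40 UMIs in 37 cells, and had 0 UMIs in OT1 CD8 SP, so that it was at least 22.5-fold higher against a floor of 3 counts. Cd40lg, the helper ligand for CD40, was 141 against 9.41, 15.0-fold higher (7.52 to 34.0). Izumo1r, which encodes folate receptor 4, was 176 against 33.4, 5.28-fold higher (3.51 to 8.12). In all, 4 of the 7 measured genes of the CD4 lineage list were called higher in OT2 CD4 SP, with and without the cycling cells. Of all genes 1.42% and 0.993% were called so. The 4 include Cd4, which only checks the choice of cells and also enters the list median. The list median was 2.10 on the log2 scale with 10 CPM added, against -0.01 for all 7603 genes.

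Within that list, 2 members with ample counts did not reach the call. Il6ra, the receptor chain for interleukin 6, was 101 against 34.5, with an interval of 1.87 to 4.62 for its ratio. Gata3, a factor needed early for the CD4 lineage, was 60.0 against 63.7, and its ratio of OT1 over OT2 had an interval of 0.688 to 1.67. The Gata3 interval excludes a 2-fold difference in either direction.

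CD8 lineage genes were higher in the OT1 cells. Nkg7 (chromosome 7, 43437138 to 43438246, GRCm38.p6), a protein of cytotoxic granules, was 3.53 CPM in OT2 CD4 SP, from 2 UMIs, and 379 in OT1 CD8 SP, where 75 of 131 cells had a UMI. Itgae, the αE chain of CD103, was 1.76 against 89.9, 50.9-fold higher in OT1 CD8 SP (8.90 to 2035). Ctsw, a cathepsin of cytotoxic cells, was 106 against 364, 3.44-fold higher (2.61 to 4.597), although in the RIPmOVA hosts it lay the other way, with 16 UMIs in OT2 and 7 in OT1 cells. All 7 genes of the list were lower in OT2 CD4 SP and 5 were called, or 6 without the cycling cells. Of all genes 3.45% and 0.774% were called higher in OT1 CD8 SP. The 5 include Cd8a and Cd8b1, which only check the choice of cells and also enter the list median. The sixth was Runx3, which was 45.9 against 138 in all cells (3.01-fold, 1.96 to 4.77) and 168 in the cells that were not cycling (3.66-fold, 2.36 to 5.85). The list median was -3.04, and -3.40 without the cycling cells.

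These lineage genes were lower in the cycling cells of the OT1 group than in the rest. Cd8a was 259 CPM in the 21 cycling cells and 925 in the other 110. Nkg7 was 77.0 against 535, and Itgae 21.6 against 124.97. The ratios above are thus smaller than those for the cells that were not cycling, in which Nkg7 was 152-fold higher than in OT2 CD4 SP (41.6 to 1256).

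**Figure D2:**
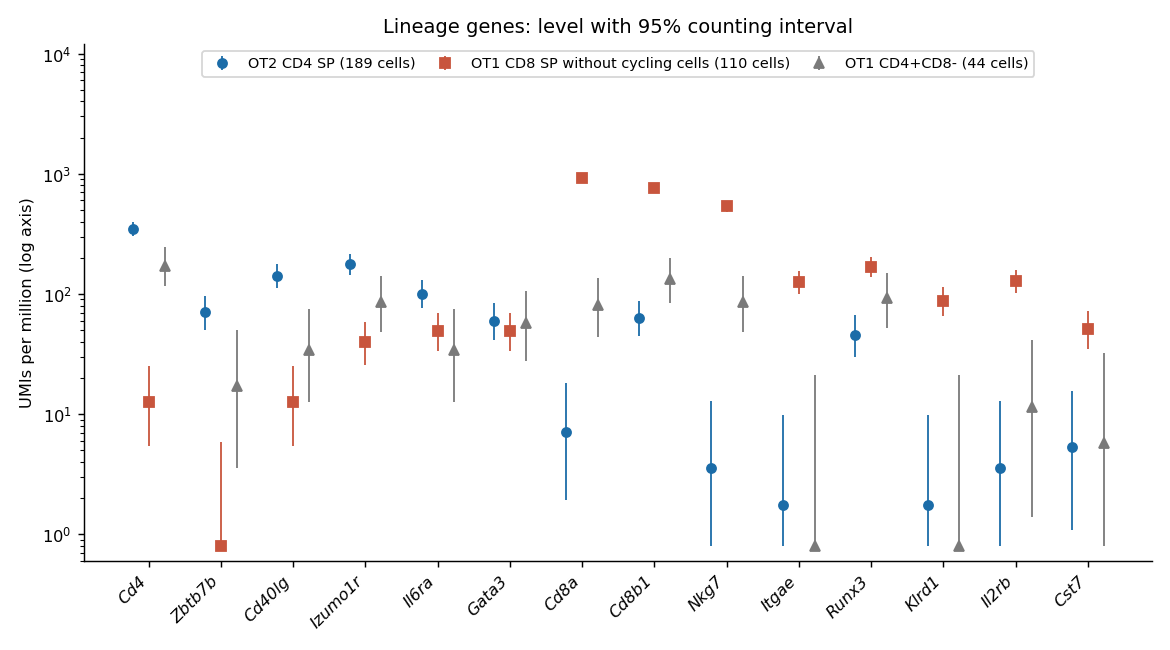
Levels of lineage genes in CPM (y axis, log scale) in OT2 CD4 SP (circles), OT1 CD8 SP without the cycling cells (squares) and OT1 CD4+CD8- cells (triangles), with exact 95% counting intervals; a level of 0 is drawn at 0.8. Cd4, Zbtb7b and Cd40lg were highest in OT2 CD4 SP, Cd8a and Nkg7 in OT1 CD8 SP, and the OT1 CD4+CD8- cells lay between them for Cd4 and Cd8a.

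Of 17 list members for innate-like and cytotoxic cells, 5 were measurable, each only through its OT1 UMIs. All 5 were called higher in OT1 CD8 SP, beside 3.45% of all genes. Since the count limit favoured that direction, this count is a description only. Klrd1, which encodes the CD94 chain of NK receptors, was 1.76 CPM against 72.1. Il2rb, the β chain of the receptors for interleukins 2 and 15, was 3.53 against 97.2, 27.5-fold higher in OT1 CD8 SP (7.41 to 231). In the RIPmOVA hosts Il2rb was 98.4 CPM in OT2 (14 UMIs) and 79.3 in OT1 cells (16 UMIs), and the interval of its ratio, 0.561 to 2.71, included 1. Cst7, a cystatin, was 5.29 against 37.6. Without the cycling cells Klrd1, Il2rb and Cst7 were still called. Gzma, which encodes granzyme A, was not: it was 379 CPM in the cycling OT1 cells, 33.2 in the others and 28.2 in OT2 CD4 SP, where 1 cell held all 16 UMIs. Cd160, a receptor of cytotoxic cells, had 0 UMIs in OT2 CD4 SP and 22 in OT1 CD8 SP, and fell below the count limit without the cycling cells. A single cell held 25.7% of the Gzma UMIs of OT1 CD8 SP. Eomes, a factor of memory-like CD8 cells, had 9 UMIs in OT1 CD8 SP and 0 in OT2 CD4 SP, below the count limit.

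Helios and PD-1 transcripts were also higher on the OT1 side. Ikzf2 (Helios, a factor induced by strong receptor signals) was 19.4 CPM in OT2 CD4 SP and 196 in OT1 CD8 SP, 10.1-fold higher (5.53 to 20.6). It was near equal in cycling (191) and other (199) OT1 cells. Pdcd1 (PD-1) was 14.1 against 70.0, 4.96-fold higher (2.38 to 12.0). Its antibody differed less, with an OT2 over OT1 ratio of 0.796 (0.760 to 0.834). Ikzf2 and Pdcd1 were the 2 called members among 5 measured of the Treg and agonist list, beside 3.45% of all genes called higher in OT1 CD8 SP. Tnfrsf18 (GITR) was 52.9 against 25.1, with an interval of 1.19 to 3.77. In the antigen-bearing hosts Ikzf2 lay the other way, at 1159 CPM in OT2 CD4+CD8- and 758 in OT1 CD4-CD8+ cells.

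Most T cell transcription factors were not called. Of 22 measured, 1 was called higher in OT2 CD4 SP, beside 1.42% of all genes. In OT1 CD8 SP 2 were called higher, beside 3.45% of all genes. Runx1, which represses Cd4 in immature thymocytes, was 303 CPM against 110, 2.77-fold higher in OT2 CD4 SP (2.16 to 3.56), and 3.20-fold without the cycling cells. Myb, which is active in immature and cycling thymocytes, was 10.6 against 66.9 in all cells and 33.2 in cells that were not cycling, where it was not called. The other call, Tox2, was 3.53 against 37.6 and fell below the count limit without the cycling cells. Tcf7 (1475 against 1439) and Lef1 (898 against 950), factors that maintain T cell identity, had ratios with intervals of 0.939 to 1.12 (OT2 over OT1) and 0.948 to 1.18 (OT1 over OT2). Satb1, a chromatin organiser, was 1198 against 1116. Tox, which CD4 development needs, was 448 against 550, and Id3, an inhibitor of E proteins, 492 against 651.

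Genes of late maturation and thymic exit were higher in OT2 CD4 SP in part. Of 18 measured members, 5 were called higher in OT2 CD4 SP, beside 1.42% of all genes, and 0 higher in OT1 CD8 SP, beside 3.45%. Without the cycling cells 3 of 18 were called higher in OT2 CD4 SP, beside 0.993% of all genes. The list median was 0.81, and 0.48 without those cells. Ly6a, which encodes Sca-1, was 261 CPM against 15.7, 16.7-fold higher (9.78 to 30.5), and Ly6c1 was 88.2 against 2.09. Slfn1, of the schlafen family linked to T cell quiescence, was 450 against 86.7, 5.19-fold higher (4.03 to 6.73). These 3 were called in either set of cells, whereas Ccr7, S1pr1 and Klf2, given next, were not called without the cycling cells. Whether these 3 calls are separate from the interferon response described below was not tested.

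The receptors of migration divided. Ccr7, the receptor for chemokines of the medulla, was 577 CPM in OT2 CD4 SP, 221 in all OT1 CD8 SP cells and 304 in those not cycling, so that its ratio moved from 2.62 (2.19 to 3.13) to 1.90 (1.58 to 2.28). S1pr1, the receptor that draws cells out of the thymus, was 238 against 98.2, or 144 without the cycling cells, with ratios of 2.42 (1.85 to 3.19) and 1.65 (1.26 to 2.18). Klf2, the factor that drives S1pr1, was 605 against 497 in all cells, and 679 in OT1 cells that were not cycling, so the order reversed. Gpr183, the receptor for oxysterols, was 98.8 against 15.7, 6.303-fold higher in OT2 CD4 SP (3.52 to 12.0).

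Of 7 measured markers of less mature single-positive cells, 1 was called, higher in OT1 CD8 SP, beside 3.45% of all genes. Cd24a, lost as cells mature, was 12.4 CPM against 85.7, 6.94-fold lower in OT2 CD4 SP (3.22 to 17.8), and against 64.9 without the cycling cells. Ccr9, which responds to a chemokine of thymic stroma, was 215 against 423, 1.97-fold lower (1.60 to 2.43). Itm2a, induced on positive selection, lay the other way, at 743 against 434. Dntt and Arpp21, genes of preselection thymocytes, were 31.8 against 107 and 10.6 against 53.3. In OT1 cells that were not cycling they were 41.1 and 12.7, and neither was called.

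After thinning to 1500 UMIs, which left out 10 OT2 and 4 OT1 cells, shares of cells with a UMI could be compared at equal depth. Ccr7 was seen in 57.0% of 179 OT2 CD4 SP cells (exact interval 49.4 to 64.3) and 25.2% of 127 OT1 CD8 SP cells (17.9 to 33.7). The unthinned shares were 75.1% and 61.1%. Slfn1 was seen in 46.9% (39.4 to 54.5) and 14.2% (8.62 to 21.5), against unthinned shares of 60.3% and 32.8%. Ly6a was seen in 26.8% and 1.57%. For S1pr1 the unthinned shares were both 39.7%, whereas the thinned ones were 24.0% (18.0 to 31.0) and 13.4% (7.995 to 20.6).

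**Figure D3:**
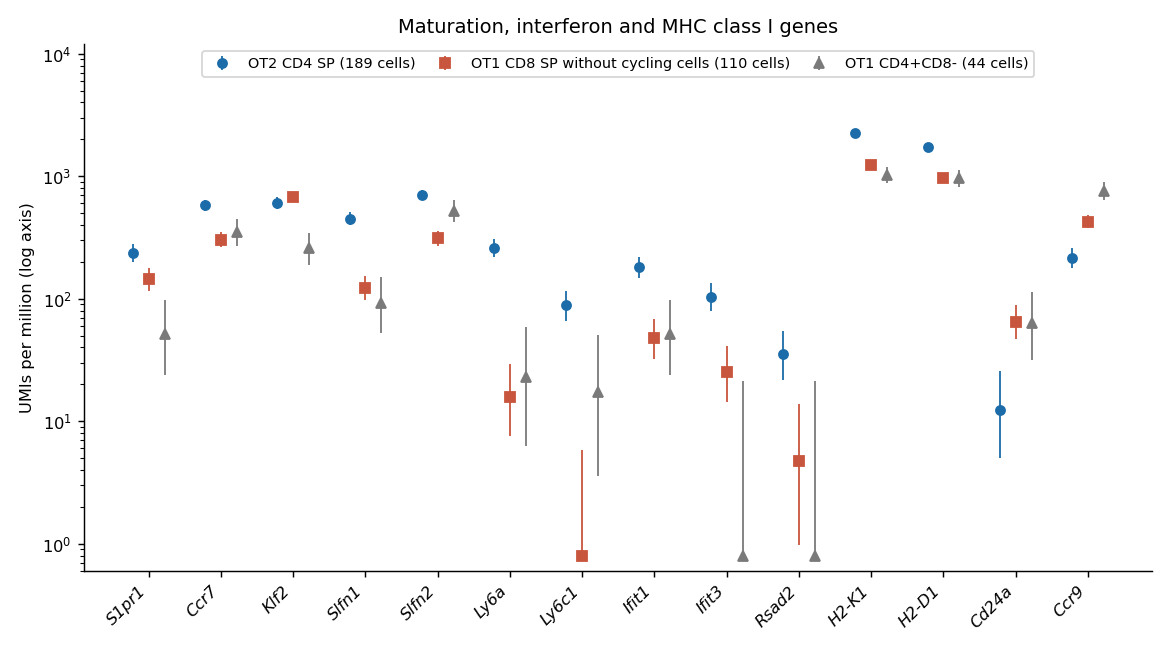
Levels of maturation, interferon response and MHC class I genes in CPM (y axis, log scale), with symbols, intervals and the value of 0.8 for a level of 0 as in the plot of lineage genes. Slfn1, Ly6a and Ifit1 were higher in OT2 CD4 SP than in OT1 CD8 SP without cycling cells, Klf2 was near equal, and Cd24a and Ccr9 were lower.

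Interferon response genes were higher in OT2 CD4 SP. All 17 measured members had ratios above 1 and 10 were called, beside 1.42% of all genes; the list median was 1.53. Ifit1, which binds foreign RNA, was 182 CPM against 32.4, 5.61-fold higher (3.72 to 8.67). Ifit3 was 104 against 16.7, Usp18, which dampens the interferon receptor and was named after its values were seen, 79.4 against 14.6, and Rsad2 (viperin) 35.3 against 3.14. Ifi47 and Ifi27l2a, with more UMIs, were 1.83-fold (1.54 to 2.18) and 1.82-fold higher (1.63 to 2.05) and not called. Iigp1, an interferon-inducible GTPase outside the list, was 93.5 against 2.09.

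The cycling OT1 cells had low interferon gene levels. Summed over the list, the level was 3709 CPM in OT2 CD4 SP, 1667 in OT1 CD8 SP, 2302 in the OT1 cells that were not cycling and 431 in those that were. Without them 4 of 17 members were called (Ifit1, Ifit3, Usp18 and Rsad2), beside 0.993% of all genes, and the median was 1.07. A few cells carried many of the UMIs. In OT2 CD4 SP, 1 cell held 21.4% of the Ifit1 UMIs, 35.6% of those of Ifit3 and 55% of the 20 of Rsad2. In OT1 CD8 SP, 1 cell held 45.16% of the Ifit1 UMIs and 62.5% of those of Ifit3, and Ifit1 was seen in 13 of 131 cells against 30 of 189 in OT2 CD4 SP. With each cell thinned to 1500 UMIs, the median number of list UMIs was 4 in OT2 CD4 SP (quartiles 2 and 7) and 2 in OT1 CD8 SP (0 and 4).

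Promoters of these genes are shown because all 17 measured list members had ratios above 1. The motif GAAANNGAAA, the core of the interferon-stimulated response element, was searched on both strands in windows of 300 bases from RefSeq (250 before to 50 after the start, GRCm38.p6). Of the 18 list genes 13 had a window and 8 held a match (61.5%), as did 5 of the 8 genes with a window among the 10 called (62.5%). Of 27025 genes with a window 3.99% held one. A match is a run of letters and no measured site. The 3 called genes with a match and the most UMIs were Ifit1 (chr19:34640639-34640938, plus strand), Igtp (chr11:58199306-58199605, plus strand) and Gbp2 (chr3:142620413-142620712, plus strand), with capitals for matches on either strand.
Ifit1: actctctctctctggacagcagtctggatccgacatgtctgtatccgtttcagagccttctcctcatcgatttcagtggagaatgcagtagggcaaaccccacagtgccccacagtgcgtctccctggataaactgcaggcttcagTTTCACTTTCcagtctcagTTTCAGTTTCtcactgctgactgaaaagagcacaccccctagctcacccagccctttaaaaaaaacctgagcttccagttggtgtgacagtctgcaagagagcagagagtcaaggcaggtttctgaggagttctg
Igtp: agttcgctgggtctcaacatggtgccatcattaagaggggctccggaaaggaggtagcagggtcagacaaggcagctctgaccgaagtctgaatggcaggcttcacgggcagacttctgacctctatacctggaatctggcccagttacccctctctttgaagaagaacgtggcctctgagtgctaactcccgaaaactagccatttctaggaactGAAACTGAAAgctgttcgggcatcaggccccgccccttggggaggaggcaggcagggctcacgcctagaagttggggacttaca
Gbp2: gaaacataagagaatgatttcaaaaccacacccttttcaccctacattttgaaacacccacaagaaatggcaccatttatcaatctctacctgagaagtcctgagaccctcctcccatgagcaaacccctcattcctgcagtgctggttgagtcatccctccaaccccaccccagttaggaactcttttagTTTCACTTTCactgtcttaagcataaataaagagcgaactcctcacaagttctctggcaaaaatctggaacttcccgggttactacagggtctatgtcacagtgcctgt
Igtp was 148 CPM against 44.9, 3.30-fold higher in OT2 CD4 SP (2.26 to 4.88), and Gbp2 109 against 31.4, 3.49-fold higher (2.22 to 5.59). Both encode interferon-inducible GTPases and were named for their windows, after their values were seen.

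Of 9 measured MHC class I genes, 8 had ratios above 1 and 2 were called higher in OT2 CD4 SP, beside 1.42% of all genes. H2-K1 was 2243 CPM against 923, 2.43-fold higher in OT2 CD4 SP (2.23 to 2.65), and H2-D1 1747 against 723, 2.42-fold (2.19 to 2.67). Without the cycling cells they were 1.82-fold (1.67 to 1.99) and 1.80-fold higher (1.62 to 1.99), and neither was called. B2m, the light chain, was 1244 against 798, and Psmb8, an immunoproteasome subunit, lay the other way, at 612 against 680.

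Of 13 measured genes induced by the receptor 0 were called, and 0 of 20 genes of the CD3 complex and proximal signalling. Of all genes 1.42% were called higher in OT2 CD4 SP and 3.45% higher in OT1 CD8 SP. In lists this short, 0 calls are near those shares. Of 19 measured genes of cytokine receptors and STAT signalling, 17 had ratios above 1 and 1 was called higher in OT2 CD4 SP, or 0 without the cycling cells, and the list median was 0.41. Cd5, whose level follows receptor signal strength, was 208 CPM against 458, 2.20-fold lower in OT2 CD4 SP (1.79 to 2.72). Cd3e was 1470 against 1092. Il7r, the receptor for the survival cytokine interleukin 7, was 270 against 158, and against 214 in OT1 cells that were not cycling. Bcl2, a survival factor, was 93.5 against 167, 1.79-fold lower in OT2 CD4 SP (1.30 to 2.49), and Socs1, a feedback inhibitor of cytokine signals, 118 against 80.5. Cd69, an early activation marker, was 72.3 against 93.0, and its interval included 1. Cd6 was 134 against 188, 1.40-fold lower (1.07 to 1.86).

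**Figure D4:**
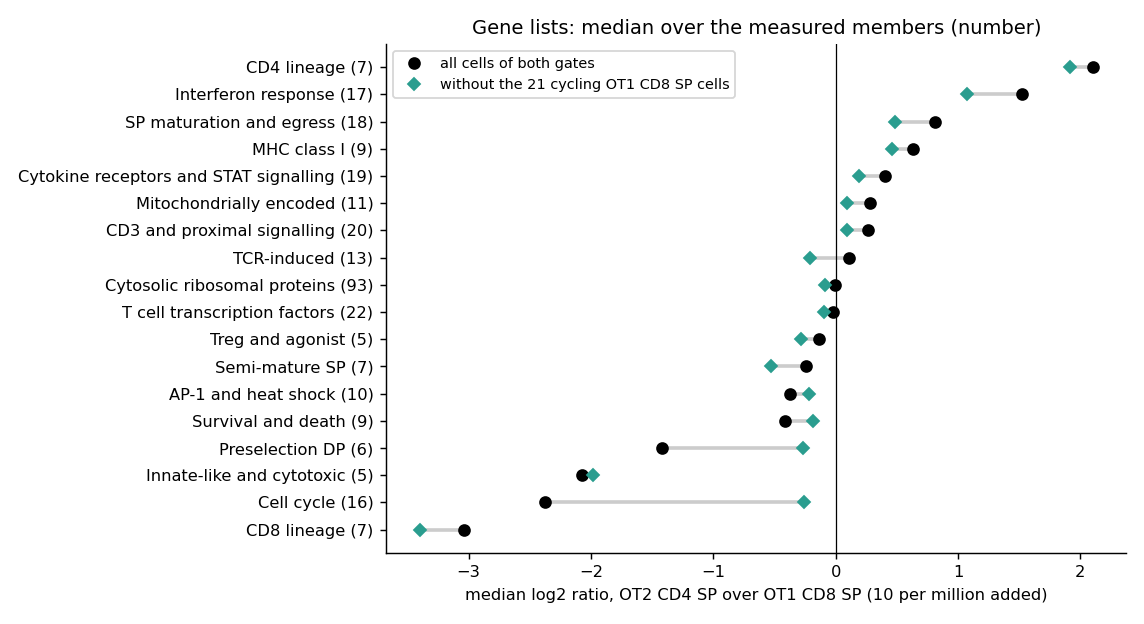
Median over the measured members of each gene list (number in brackets) of the log2 ratio of OT2 CD4 SP over OT1 CD8 SP, with 10 CPM added, for all cells (circles) and without the 21 cycling cells (diamonds). The cell cycle list moved from -2.38 to -0.26 and the preselection list from -1.42 to -0.27, while the CD4 lineage (2.10 and 1.91) and CD8 lineage (-3.04 and -3.40) lists stayed far from 0. The CD4 lineage list includes Cd4 and the CD8 lineage list Cd8a and Cd8b1, which follow the choice of cells.

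The receptor genes, named after their values were seen, differed as well. Trac, the constant segment of the α chain, was 1690 CPM in OT2 CD4 SP and 369 in OT1 CD8 SP, 4.58-fold higher (4.05 to 5.19). Trbc1 was 206 against 956 and Trbc2 854 against 1669, both lower in OT2 CD4 SP. Trdc, the δ chain constant segment, was 24.7 against 301, 12.2-fold lower in OT2 CD4 SP (7.14 to 22.6). Trgc1, Trgc2 and Trgc4, constant segments of the γ chain, had 0 to 1 UMIs each in OT2 CD4 SP and 4 to 8 in OT1 CD8 SP. The summed level of the γδ list was 42.3 CPM in OT2 CD4 SP and 369 in OT1 CD8 SP, and its part in the other results was not tested. In OT2 CD4 SP 22 Trbv and 61 Trav segments had a UMI, against 5 and 28 in OT1 CD8 SP.

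Marker lists of other lineages were summed in the same cells. The NK and ILC list held 0 CPM in OT2 CD4 SP and 2.09 in OT1 CD8 SP, and the erythroid list 0 and 1.05. The summed B cell list was 120 and 310 CPM, the myeloid list 56.5 and 98.2 and the thymic epithelial list 17.6 and 76.3, and their part in the results was not tested. Of the B cell markers, Ms4a1 had 0 and 2 UMIs, while Ighm was 113 and 273 CPM. The myeloid markers Lyz2 and Csf1r had 0 and 1 UMIs each. Among thymic epithelial markers Krt5, Krt8 and Psmb11 had 0 UMIs, and Cd74, called higher in OT1 CD8 SP, drew 85.3% of its OT1 UMIs from 1 cell.

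Some genes outside the lists were also examined without the cycling cells. They were chosen after the values were seen and are not a ranking. They are given because 8 of 8 top genes on the OT1 side were genes of the cell cycle in all cells. Those 8 were Ccna2, Ccnb2, Cdk1, Cenpf, Knl1, Pclaf, Racgap1 and Top2a, each with 0 UMIs in OT2 CD4 SP. Racgap1 was still called without the cycling cells, with 27 UMIs (42.7 CPM) in the other OT1 CD8 SP cells. The rule thus did not remove all cell cycle RNA. Top2a was at least 49.0-fold higher in OT1 CD8 SP. Without the cycling cells, Plac8 was 1.76 CPM in OT2 CD4 SP and 182 in OT1 CD8 SP. Jaml, a junctional adhesion molecule, had 0 UMIs against 50.6 CPM. Lgals1 (galectin 1) was 125.3 against 582 and Cd7 68.8 against 247. On the OT2 side, St8sia6, a sialyltransferase, was 67.0 CPM, with 0 UMIs in OT1 CD8 SP without cycling cells. S100a6, a calcium-binding protein, was 60.0 CPM, but 1 cell held all 34 UMIs. Tspan32, a tetraspanin, was 256 against 45.9, 5.58-fold higher (3.72 to 8.62). Among genes with larger ratios than Tspan32, Erdr1 was 201 against 4.75 CPM and, like Xist, followed the donor line, with 45 to 143 UMIs in each OT2 mouse and 1 to 8 in each OT1 mouse. On the other side Ehd1, an endocytic trafficking protein, was 5.29 against 80.7.

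Surface proteins gave a second readout of the same cells. Of 115 antibodies with at least 100 UMIs, 6 (5.22%) were called higher in OT2 CD4 SP and 5 (4.35%) higher in OT1 CD8 SP. CD4 and CD8A chose the cells. CD8B did not, but it is the partner of CD8A in the CD8 dimer and only checks the choice. Its median v was 3.87 in OT2 CD4 SP and 8.02 in OT1 CD8 SP. Its summed level was 17.3-fold higher in OT1 CD8 SP (16.6 to 18.0). Both interquartile ranges, 3.21 to 4.54 and 7.23 to 8.46, did not overlap.

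Proteins higher in OT2 CD4 SP were CD9, SCA1, FR4 and the T cell receptor. CD9, a tetraspanin, had a median v of 4.505 against 2.78, and its summed level was 3.89-fold higher (3.58 to 4.22). SCA1, encoded by Ly6a, had 3.18 against 1.96 (4.06-fold, 3.65 to 4.53). FR4 had 5.12 against 3.17 (3.61-fold, 3.40 to 3.84). TCRB, which detects the receptor β chain at the surface, had 5.92 against 4.59 (2.57-fold, 2.47 to 2.68). CD3 (1.74-fold, 1.68 to 1.80) and TCRVA2 (1.67-fold, 1.62 to 1.71) were higher by less, and the Vβ5 antibody was near equal (ratio 0.900, 0.865 to 0.936).

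The sixth call did not hold across cells. PD1L2.CD273 was 3.38-fold higher in sum, but 1 cell held 48.8% of its OT2 UMIs and the medians were 3.01 and 2.90. The summed ratio of LAG3.CD223 was 1.94, with 36.3% of its UMIs in 1 cell and medians of 4.02 and 3.95. CD103 was higher in OT1 CD8 SP, with a median of 4.84 against 3.64 (3.30-fold, 3.13 to 3.48), as were ITB7, the integrin β7 chain that pairs with it (2.40-fold, 2.31 to 2.49), and the adhesion ligand ICAM1 (2.45-fold, 2.19 to 2.76). The spread of ITB7 was wide in OT1 CD8 SP, with quartiles of 3.93 and 6.90. The medians of CD24 (4.40 and 4.35), CD44 (3.47 and 3.51), CD127 (4.19 and 4.27) and CD69 (4.19 and 4.35) were close.

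**Figure D5:**
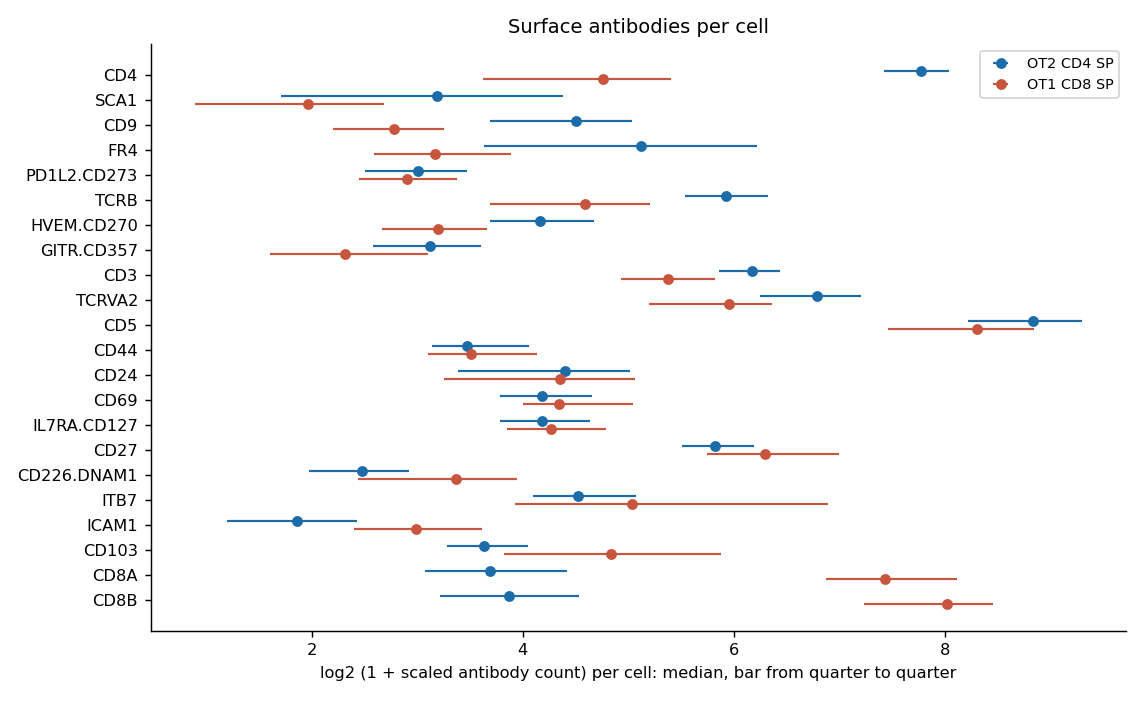
Per-cell antibody values, log2 (1 + scaled count), as median (point) and quartiles (bar) in OT2 CD4 SP (blue) and OT1 CD8 SP (red). The bars of CD4, CD8A, CD8B, CD9 and TCRB did not overlap, and those of CD24, CD44, CD69 and CD127 did.

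RNA and protein could be set side by side for 33 antibodies and their genes, a set made after the values were seen. In 30 pairs the gene had at least 20 UMIs, and in 25 of them both ratios lay on the same side of 1. The 25 include the pairs of CD4, CD8A and CD8B, which follow the choice of cells and are only a check on it. The 5 others were CD5, ITB7, CD127, CD28 and CD24. The ITB7 antibody was 2.40-fold higher in OT1 CD8 SP, while Itgb7 RNA was 307 CPM in OT2 CD4 SP against 252, a ratio of 1.22 (0.997 to 1.49). The CD5 antibody was 1.27-fold higher in OT2 CD4 SP (1.25 to 1.28, medians 8.83 and 8.30) while Cd5 RNA was 2.20-fold lower. CD127 and CD28 had antibody ratios of 0.801 and 0.768 with RNA ratios of 1.71 and 1.40. For CD24 the antibody ratio was 1.00 and the RNA ratio 0.144. Il2rb RNA was 27.5-fold higher in OT1 CD8 SP and its antibody, IL2RB.CD122, was near equal, with a ratio of 0.847 (0.796 to 0.903).

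The OT1 mouse also held 44 CD4+CD8- cells, which share the receptor and the animal with OT1 CD8 SP and the gate with OT2 CD4 SP. Of 6773 genes, 19 were called higher in these cells than in OT1 CD8 SP (0.281%) and 81 lower (1.2%). Without the cycling cells 11 (0.196%) and 26 (0.463%) of 5614 were called. They and OT2 CD4 SP are both set against the same OT1 cells, so their values are given side by side. Cd4 was 172 CPM, Zbtb7b 17.2 (3 UMIs) and Cd40lg 34.5, each below OT2 CD4 SP. Cd8a was 80.4 and Nkg7 86.1, above OT2 CD4 SP, and Itgae had 0 UMIs. Itm2a (1407), Ccr9 (758) and Satb1 (2745) were above both single-positive groups, while S1pr1 (51.7) and Klf2 (258) were below both. The list median of the interferon genes was 0.52 over OT1 CD8 SP and 0.10 over its cells that were not cycling. SCA1 and CD9 antibody levels, 820 and 1625 CPM, were near those of OT1 CD8 SP (788 and 1333), whereas FR4 was 5545 against 2533. Of 113 antibodies, 3 were called higher in these 44 cells than in OT1 CD8 SP (2.65%), namely CD4, FR4 and CD16-CD32, and 4 lower (3.54%), namely CD103, ITB7, CD8A and CD8B. The sums of CD16-CD32 were 6866 and 1012 CPM, but its median v was 2.40 in these cells and 2.47 in OT1 CD8 SP. Of the 44 cells, 38 had a Trbv12-1 UMI, 2 a Trbv12-2 UMI and 3 a Xist UMI.

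In the RIPmOVA hosts the same gates held 39 cells on each side, from 2 other mice. Of 3136 genes, 49 (1.56%) were called higher in OT2 and 85 (2.71%) higher in OT1. Over the 3123 genes measured in both host types, 18 genes were called higher in OT2 in both, 50% of the 36 in wild-type hosts and 40% of the 45 in RIPmOVA hosts. On the OT1 side 56 were shared, 53.3% of 105 and 70.9% of 79. By the ratio alone, 31 of the 36 and 99 of the 105 lay on the same side in the RIPmOVA hosts. Without cycling cells 7 of 21 and 8 of 22 of the wild-type calls were shared. Genes that follow the gate or the donor line were not taken out of these counts. In the RIPmOVA hosts they lay on the same side too. Their UMIs in OT2 and OT1 were 38 and 5 for Cd4, 49 and 0 for Xist and 63 and 1 for Rnf43. For Cd8a they were 0 and 53, and for Trbv12-1 3 and 854. Ccr7 was 555 CPM in OT2 and 34.7 in OT1, and S1pr1 183 against 4.96. H2-K1 was 1722 against 555. Nkg7 had 0 UMIs in OT2 and 62 in OT1, and Zbtb7b 8 and 0. Cd5 was 450 against 862.

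CD4+CD8+ cells, in which no lineage gate separates the lines, numbered 29 in the OT2 and 24 in the OT1 mouse. Of 1768 genes 16 (0.905%) were called higher in OT2 and 12 (0.679%) higher in OT1. Xist (38 and 0 UMIs), Rnf43 (61 and 1), Trac (420 and 34) and Trdc (4 and 36) lay as in the single-positive cells. Ly6a had 0 UMIs in both, Slfn1 0 and 6, Ifit1 0 and 2, and H2-K1 was 346 against 357 CPM. Cd5 lay the other way, at 915 CPM in OT2 and 411 in OT1. Dntt (507 against 71.5) and Arpp21 (346 against 35.7) were higher in OT2. Over all single-positive cells both lay the other way, but without the cycling cells neither was called there.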

How the data were processed

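Thymocytes of 6 chimeric mice were profiled in 1 10x Genomics 5' lane, with hashtags for the mouse and antibody tags for surface proteins. The authors deposited raw UMI counts per cell for 55494 genes and 180 antibodies and a table that names each cell's hashtag. Cell Ranger 8.0.1, Seurat and the mm10 build are named in the submitters' processing notes. How cells, hashtags and doublets were filtered is not given in the sources used here, and no doublet caller was run. Mice of the NoSelection condition were not compared, since 7 OT2 cells fell in the CD4+CD8- gate against a minimum of 20. The receptor libraries were not analysed here, and 0 per-sample columns were left unmapped.

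Counts were summed over the cells of a gate and divided by the total (CPM). Ratios carry exact conditional binomial 95% intervals, levels exact Poisson intervals and shares Clopper-Pearson intervals. All cover counting error only. A gene needed 20 UMIs and an antibody 100 over both sums, and a call the whole interval past 2-fold. Ratios against 0 UMIs are bounds from a floor of 3 counts. List medians used log2 ratios with 10 CPM added. Thinning used 1500 UMIs per cell. The method was tested on simulated Poisson counts. These share the error model of the intervals, so that test does not cover UMIs that are uneven between cells. The text names 27 anchor genes, the 8 highest and 8 lowest ratios with at least 50 UMIs that are not receptor, ribosomal or mitochondrial genes, up to 4 called members and 2 others of each list, a set of antibodies, and the Trav14 and Trbv12 segments. Other named genes were chosen after their values were seen. Some genes that this rule names are not reported here. Ties at 0 UMIs were ordered by total UMIs. The members and the 24 lists were chosen with earlier results of these data known. Positions and promoter windows come from RefSeq, GRCm38.p6. Of the list genes 3 were matched by synonym. Alternatives were scaling (edgeR 4.0.16 TMM and RLE factors), count filters, gate margin, thinning, deep cells, cycling cells and capping. Python with numpy and scipy did the rest.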

Additional observations from a re-analysis of the deposited data

Results flagged for a closer look

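For 6 named genes the interval of the OT2 over OT1 ratio lay on opposite sides of 1 in the wild-type and the RIPmOVA hosts, as it did for 25 of the 3123 genes measured in both, with 1 mouse a side in each, and the difference between the hosts was not tested. Ikzf2 had a log2 ratio of -3.34 in the wild-type hosts (19.4 against 196 CPM) and 0.61 in the RIPmOVA hosts (1159 against 758). Dusp2, a phosphatase induced by receptor signals, had 0.49 (296 against 211) and -0.87 (204 against 372). Hsp90ab1, a chaperone, had -0.16 (2276 against 2547) and 0.28 (2361 against 1943). Ctsw had -1.78 (106 against 364) and 1.70 (112 against 34.7, from 16 and 7 UMIs). Cd28, a costimulatory receptor, had 0.49 (337 against 240) and -0.97 (253 against 496). S100a6 had 5.84 (34 UMIs, all in 1 cell, against 1) and, with 0 UMIs against 30, was at least 7.05-fold lower in OT2 cells of the RIPmOVA hosts, where 1 OT1 cell held 70% of the UMIs.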

How the results depend on the processing

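No paired analysis was possible because each group is 1 mouse and no replicate number links the mice. The counts of 108 genes higher in OT2 CD4 SP and 262 higher in OT1 CD8 SP stayed within 1.5 times under TMM (109 and 260) and RLE scaling (110 and 260). They moved to 65 and 154 with at least 50 UMIs, 536 and 791 by the point ratio, 38 and 33 after thinning to 1500 UMIs, and 9 and 34 without cells with 3 UMIs of the 16-gene cell cycle list, which left 66 and 10 cells. Without the cells above the 95th percentile of UMIs 136 were higher in OT1 CD8 SP. The rule of 5 cycling markers was chosen after seeing the data and left 68 and 53. It also gave 11 and 26 within OT1, 31 and 28 in the RIPmOVA hosts, and 7 higher in OT1 among CD4+CD8+ cells. Within OT1, the 19 genes higher in CD4+CD8- cells became 55 with at least 1 UMI and 12 with at least 50, and the 81 higher in OT1 CD8 SP became 53 with a gate margin of 0.5. After thinning, the list medians were -0.67 (preselection) and -1.77 (cell cycle), and without cycling cells -0.27 and -0.26. The log2 ratio of Cd74 reversed to 0.25 without the deepest cells and 0.52 with capped counts, that of Hsp90aa1 to 0.86 without the cells of the 16-gene list, and that of Mki67 to 2.16 without the cells it helped to define. Of the other log2 ratios of named genes, 176 moved and 766 did not. The cause of these shifts was not tested. The OT1 CD8 SP cells removed by their own cycling genes were also the deeper ones, so cycling and depth cannot be told apart in that removal. Genes under 20 UMIs could not be ranked at this depth.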
